A study of Mus musculus with 6 samples.

Results

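The heat-shock proteins and cochaperones described here are 10 genes, taken from the deposited tables by gene symbol among 24822 named genes. They are the stress-inducible Hspa1a, Hspa1b, Hspb1, Dnajb1, Hsph1 and Hsp90aa1, the constitutive Hspa8 and Hsp90ab1, and Hspa5 and Hspe1 of organelles. They were read in 6 RNA-seq libraries of macrophages sorted from the injured sciatic nerve of mice, 3 of recruited (ECFP+) and 3 of resident (EGFP+) cells. Both groups came from C57BL/6 mice of the genotype Macblue x Cx3cr1egfp/+ at day 14 after CCI, the treatment given in the labels, and both were gated as CD64+ CD11b+ SiglecF- Ly6G-. All animals carried both reporters and the injury, and no uninjured nerve is part of the comparison. In Macblue mice ECFP is driven by an altered Csf1r promoter, and in Cx3cr1egfp/+ mice EGFP sits in the Cx3cr1 locus, so the groups are set apart by reporter and not by a lineage trace. Each library held about 400 cells from the nerves of 3 pooled mice and was amplified for 18 cycles before library preparation.

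Chaperones bind unfolded or partly folded proteins and let them fold. Proteins of the Hsp70 family hold exposed stretches of a client, J-domain cochaperones such as Dnajb1 deliver the client, and Hsp110 proteins such as Hsph1 release the nucleotide so that the cycle can restart. Hsp90 proteins mature kinases and receptors, Hspa5 (BiP) serves the endoplasmic reticulum, and Hspe1 (Hsp10) is the lid of the mitochondrial chaperonin whose barrel is Hspd1 (Hsp60). The inducible genes are switched on by the heat-shock factor Hsf1, which binds repeats of NGAAN in their promoters, and Hspa5 by the unfolded protein response through an element of its own. In macrophages, both systems answer heat, oxidants and secretory load, and heat-shock and immediate-early genes are among the quickest transcripts to respond to stress.

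Promoter windows show which of the genes hold an exact match to these elements near a transcript start. RefSeq windows of 300 bases, 250 before and 50 after a transcript start, were at hand for 7 of the 10 genes on GRCm38.p6. Hspa8, Hsp90aa1 and Hsp90ab1 had no entry. Each window was searched on both strands for a dimer of the heat-shock unit, TTCNNGAA or GAANNTTC, and for the endoplasmic reticulum stress element, CCAAT and CCACG with 9 bases of any kind between them. The 4 windows below carry the contrast between the genes. Hspa1a shows a lone dimer, Hspe1 a run of overlapping dimers, Hspb1 a pair in a gene that was barely read, and Hspa5 the other element. Capitals mark the matches and each sequence runs 5′ to 3′ along the strand of the gene, at chr17:34972107-34972406 (minus strand) for Hspa1a, chr1:55087898-55088197 (plus) for Hspe1, chr5:135887669-135887968 (plus) for Hspb1 and chr2:34771840-34772139 (plus) for Hspa5.
Hspa1a: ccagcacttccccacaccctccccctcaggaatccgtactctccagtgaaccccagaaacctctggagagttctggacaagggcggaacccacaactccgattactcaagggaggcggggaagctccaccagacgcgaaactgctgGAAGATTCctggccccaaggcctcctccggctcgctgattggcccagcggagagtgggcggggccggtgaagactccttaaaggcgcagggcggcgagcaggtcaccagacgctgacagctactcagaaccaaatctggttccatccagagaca
Hspe1: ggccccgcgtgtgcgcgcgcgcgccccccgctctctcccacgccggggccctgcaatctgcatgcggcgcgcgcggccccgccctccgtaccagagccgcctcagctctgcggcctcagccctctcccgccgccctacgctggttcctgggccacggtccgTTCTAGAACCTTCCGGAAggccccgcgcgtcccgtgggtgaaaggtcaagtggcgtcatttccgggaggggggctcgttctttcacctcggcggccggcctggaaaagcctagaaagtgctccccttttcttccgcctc
Hspb1: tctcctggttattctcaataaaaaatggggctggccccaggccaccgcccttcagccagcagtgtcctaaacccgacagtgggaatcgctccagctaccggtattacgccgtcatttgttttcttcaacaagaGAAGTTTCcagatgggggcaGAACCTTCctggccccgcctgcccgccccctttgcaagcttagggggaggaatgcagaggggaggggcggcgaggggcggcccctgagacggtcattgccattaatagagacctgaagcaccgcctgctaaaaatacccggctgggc
Hspa5: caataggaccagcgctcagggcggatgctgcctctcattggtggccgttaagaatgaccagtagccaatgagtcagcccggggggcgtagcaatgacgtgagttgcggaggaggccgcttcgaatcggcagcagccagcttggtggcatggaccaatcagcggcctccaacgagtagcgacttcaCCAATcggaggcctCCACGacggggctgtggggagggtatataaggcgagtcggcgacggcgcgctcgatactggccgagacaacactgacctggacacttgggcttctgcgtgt

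At least 1 dimer stood in a window of 5 of the 7 genes, while 15.1% of all 32851 RefSeq windows held one. In Hspa1a the dimer GAAGATTC began 104 bases before the start. The window of Hspa1b, at chr17:34959189-34959488, held the same dimer at the same place and differed from that of Hspa1a at 4 of 300 bases. In Hspe1 the 3 matches TTCTAGAA, GAACCTTC and TTCCGGAA began 89, 84 and 79 bases before the start and overlapped. Only 0.256% of all windows held 3 or more dimers. Hspe1 and Hspd1 lie head to head on chromosome 1, and the Hspe1 window shared 285 of its 300 bases with a window of Hspd1, so both genes carry the same run of dimers. Hsph1 held 3 dimers in each of its windows, whereas Dnajb1 held none in either of its windows. The Hspa5 window held the stress element 65 bases before the start, as did 0.119% of all windows. A match describes these letters and is neither a binding site nor a cause of any level given below. A window with no exact match does not show that the gene lacks the element.

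The libraries held 16688848 to 27547336 expected counts, and 11354 genes passed the filter on low counts, all 10 chaperones among them. The labelled cell type was borne out by its markers. All 12 macrophage markers were read, summing to 41114 to 51363 CPM (read counts scaled to library size by TMM) in recruited and 43621 to 46401 CPM in resident libraries, led by Lyz2 and Cd14, and 1 of them, Aif1, passed the test (log2 difference -1.26, adjusted p = 0.0493). Schwann cell markers, led by Pmp22 and Mbp, summed to 240 to 532 CPM in recruited and 240 to 294 CPM in resident libraries, with Sox10 and Mal at 0 throughout. Neutrophil markers, led by Csf3r and S100a8, summed to 231 to 295 CPM in recruited and 108 to 136 CPM in resident libraries, with Ly6g and Ngp at 0. Dendritic cell markers, led by Cd209a and Itgax, summed to 161 to 420 CPM in recruited and 233 to 1006 CPM in resident libraries. Fibroblast markers, led by Col3a1 and Dcn, stayed at or below 58.5 CPM, endothelial and mural markers, led by Kdr and Acta2, at or below 27.3 CPM, and lymphocyte markers, led by Klrb1c and Ms4a1, and mast cell and eosinophil markers, led by Siglecf and Kit, at or below 7.26 CPM. Differences are recruited minus resident on a log2 scale, tested with edgeR's quasi-likelihood test across all 11354 genes. In bulk samples such as these, fewer cells of a type and less RNA per cell cannot be told apart.

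No chaperone passed the test between recruited and resident macrophages. With edgeR's quasi-likelihood test 0 of 10 fell below an adjusted p of 0.05, as 0.317% of all tested genes did, and with DESeq2 0 of 10 did, against 5.66% of all genes with an adjusted p there. At an unadjusted p under 0.05 there was 1 of 10, Hspe1, against 16.8% of all tested genes. Hspe1 was also the only chaperone whose libraries did not overlap between the groups, higher in resident macrophages, a pattern that 12.6% of all tested genes had. The 10 log2 differences were positive for 3 genes and negative for 7, with a median of -0.18, against a median of 0.01 over all tested genes. Without resident replicate 3 there were 4 negative differences and the median was 0.01. The counts past each mark lie at or below the background, so they say nothing particular to the chaperones, and a p above the threshold does not show that the groups are alike.

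**Figure D1:**
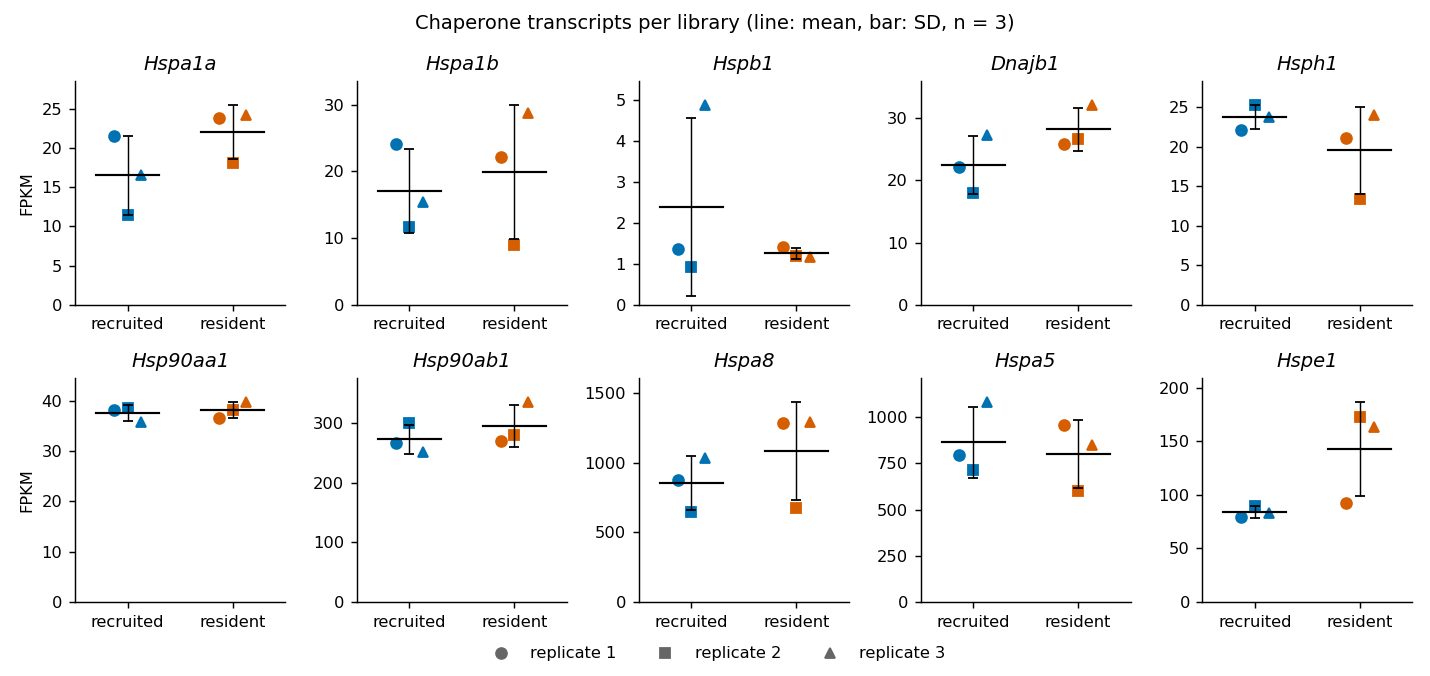
Expression of each of the 10 chaperones in FPKM (vertical axis, from 0, own scale per panel) in recruited (blue) and resident (orange) libraries; each point is a library, the line the mean and the bar the SD of 3. Hspe1 alone shows no overlap of the groups, Hsp90aa1 lies between 35.9 and 39.8 FPKM in all 6 libraries, and the higher mean of Hspb1 in recruited macrophages is a single library at 4.87 FPKM.

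The inducible Hsp70 genes, Hspa1a and Hspa1b, were expressed at a low to moderate level. Hspa1a was read at 21.5, 11.5 and 16.5 FPKM (fragment counts scaled to transcript length and library size) in recruited replicates 1 to 3, against 23.9, 18.1 and 24.2 FPKM in resident replicates 1 to 3. Hspa1b stood at 24.1, 11.7 and 15.3 FPKM in recruited and 22.1, 8.95 and 28.7 FPKM in resident libraries. The ranges overlapped for both genes, and recruited replicate 2 and resident replicate 2 were low within their groups for each. The log2 difference was -0.43 ± 0.25 (SE, adjusted p = 0.432) for Hspa1a and -0.23 ± 0.42 (SE, adjusted p = 0.836) for Hspa1b. These genes are near-identical neighbours on chromosome 17. Of all stretches of 75 bases, the read length, 52.7% of those in Hspa1a transcripts also occur in Hspa1b, and 55.8% the other way, so the division of reads between them is uncertain. The share of Hspa1a in the CPM of the pair was 47.1, 49.4 and 51.8% in recruited libraries and 51.8, 66.8 and 45.7% in resident ones. Neither gene shared such a stretch with Hspa8. The span of Hspa1a overlaps that of the unnamed gene model Gm20481 on the opposite strand. The part of Gm20481 reads in the Hspa1a level was not tested, and the use of strand is not given.

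Summed, the pair does not depend on that division. Hspa1a and Hspa1b together were read at 119, 61.5 and 82.6 CPM in recruited libraries and 116, 72.6 and 142 CPM in resident libraries. Their means were 87.6 ± 28.9 CPM in recruited and 110 ± 35.0 CPM in resident macrophages (SD, n = 3 each). The groups overlapped, and the spread inside each was wider than the gap between them. The log2 difference was -0.33 ± 0.30 (SE), with a 95% interval from -1.01 to 0.35 (adjusted p = 0.631). A difference of 2-fold higher in resident macrophages thus lies at the edge of what these libraries allow.

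The constitutive Hsp70, Hspa8 (Hsc70), which carries out most cytosolic folding and uncoats clathrin vesicles, was among the most expressed genes. It was read at 874, 648 and 1036 FPKM in recruited libraries, against 1282, 677 and 1288 FPKM in resident ones. Its mean FPKM ranked 79 among all genes of the table. Recruited replicate 2 and resident replicate 2 again held the lowest level, so that the groups overlapped (log2 difference -0.35 ± 0.26 SE, adjusted p = 0.541). The small nucleolar RNA genes Snord14c, Snord14d and Snord14e lie inside the span of Hspa8 on the same strand. Only gene spans were compared, and the part of their reads in the Hspa8 level was not tested.

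Set against each other within a library, Hspa8 exceeded the summed FPKM of Hspa1a and Hspa1b 19.2-fold, 27.9-fold and 32.5-fold in recruited libraries. In resident libraries it did so 27.9-fold, 25.0-fold and 24.3-fold. For the log2 ratio only, 1 FPKM was added to the sum and to Hspa8. The log2 ratio of inducible to constitutive Hsp70 averaged -4.65 ± 0.38 in recruited and -4.65 ± 0.11 in resident macrophages (SD, n = 3 each). The means were thus nearly equal, while recruited libraries spread more widely around theirs. The difference of the log2 ratios was -0.0025 (exact permutation test, 2-sided, p = 1.0, where the smallest p that 3 libraries against 3 can give is 0.1).

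The J-domain cochaperone Dnajb1 and the nucleotide exchange factor Hsph1, the partners of Hsp70, gave differences of opposite sign, both short of the threshold. Dnajb1 was read at 22.2, 17.9 and 27.4 FPKM in recruited and 25.9, 26.6 and 32.2 FPKM in resident libraries. Hsph1 was read at 22.2, 25.3 and 23.8 FPKM in recruited and 21.2, 13.4 and 24.0 FPKM in resident libraries. Recruited replicate 3 was inside the resident range of Dnajb1, and for Hsph1 resident replicate 2 alone stood well below the rest. The log2 difference was -0.34 ± 0.19 (SE, adjusted p = 0.430) for Dnajb1 and 0.28 ± 0.22 (SE, adjusted p = 0.578) for Hsph1. In resident replicate 2 Dnajb1 stood second highest of the 6 libraries while Hsph1, Hspa1b and Hspa5 stood lowest.

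The small heat-shock protein Hspb1 (Hsp25 in mice), which holds unfolded clients without ATP, was barely detected. It was read at 1.35, 0.93 and 4.87 FPKM in recruited libraries and 1.41, 1.19 and 1.17 FPKM in resident ones. These values rest on 16, 14 and 70 counts in recruited and 28, 17 and 19 counts in resident libraries, above the 3 counts taken as a floor. Recruited replicate 3 stood apart and the other 5 libraries lay close together. The log2 difference of 0.90 ± 1.05 (SE, adjusted p = 0.727) became -0.16 without recruited replicate 3. That library also held the most Pmp22, a Schwann cell marker, at 498 CPM, against 180 and 194 CPM in the other recruited libraries and 195 to 237 CPM in resident ones, and the lowest sum of macrophage markers, at 41114 CPM. The part of these markers in the Hspb1 level was not tested.

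The cytosolic Hsp90 genes were the steadiest of the chaperones. The inducible Hsp90aa1 was read at 38.3, 38.6 and 35.9 FPKM in recruited and 36.7, 38.2 and 39.8 FPKM in resident libraries. The constitutive Hsp90ab1 was read at 266, 299.6 and 252 FPKM in recruited and 269, 280.1 and 335 FPKM in resident libraries. The groups overlapped for both genes, and the highest library was resident replicate 3 for each. Hsp90aa1 averaged 100.1 ± 4.98 CPM in recruited and 102 ± 7.32 CPM in resident macrophages (SD, n = 3 each). Its log2 difference of -0.03 ± 0.13 (SE, adjusted p = 0.935) had a 95% interval from -0.34 to 0.27, and that of Hsp90ab1 was -0.12 ± 0.15 (SE, adjusted p = 0.733). Between its lowest and highest library Hsp90aa1 varied 1.15-fold in CPM, and only 54 of all tested genes, 0.476%, varied less. Hsp90ab1 varied 1.38-fold, Hspa5 1.74-fold, Hspa8 2.01-fold and Hspa1b 3.20-fold.

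In FPKM, Hsp90ab1 exceeded Hsp90aa1 6.96-fold, 7.76-fold and 7.02-fold in recruited libraries and 7.35-fold, 7.34-fold and 8.43-fold in resident ones. The constitutive gene thus led in every library, by less than for Hsp70. For the log2 ratio only, 1 FPKM was added to each gene. The log2 ratio of inducible to constitutive Hsp90 averaged -2.82 ± 0.09 in recruited and -2.91 ± 0.12 in resident macrophages (SD, n = 3 each), with overlapping groups (difference 0.09, exact permutation test, 2-sided, p = 0.5).

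**Figure D2:**
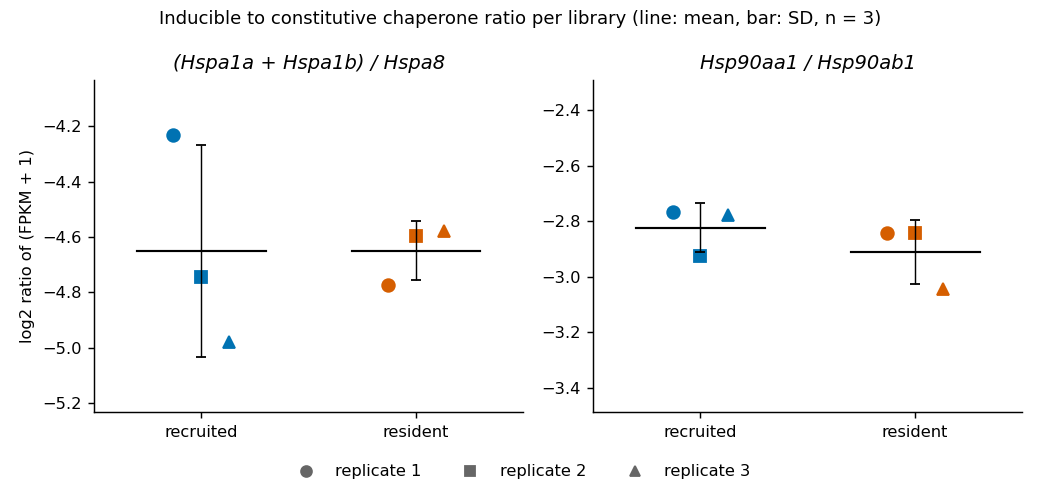
Log2 ratio of inducible to constitutive chaperone in each library, from FPKM with 1 added, for Hsp70 (left panel) and Hsp90 (right panel); axes span the same 1.2 log2 units, each point is a library, the line the mean and the bar the SD of 3. Recruited (blue) and resident (orange) libraries overlap in both panels, and the Hsp70 ratio of recruited replicate 1 is the highest at -4.23.

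Hspa5, the Hsp70 of the endoplasmic reticulum, reached the level of Hspa8. It was read at 797, 717 and 1082 FPKM in recruited and 960, 599.5 and 848 FPKM in resident libraries, and its mean FPKM ranked 94 in the table. The groups overlapped, with resident replicate 2 lowest and recruited replicate 3 highest (log2 difference 0.10 ± 0.20 SE, adjusted p = 0.849). Hspa5 and Hspa8 together made up 73.7 to 82.4% of the summed CPM of the 10 chaperones in recruited libraries and 72.2 to 82.0% in resident ones. The ratio of Hspa5 to Hspa8 in FPKM was 0.911, 1.11 and 1.04 in recruited libraries and 0.748, 0.885 and 0.658 in resident ones. That ratio did not overlap between the groups. It was picked after the values were seen and is given with no test.

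Hspe1 was the chaperone whose groups stood apart, and the gap came mainly from resident replicates 2 and 3. It was read at 78.9, 89.9 and 83.2 FPKM in recruited macrophages, against 92.7, 173 and 164 FPKM in resident macrophages. Resident replicate 1 lay just above the recruited libraries, and the other two resident libraries lay far above them. In CPM Hspe1 averaged 48.5 ± 3.54 in recruited and 84.6 ± 28.02 in resident macrophages (SD, n = 3 each). The log2 difference was -0.80 ± 0.26 (SE), 1.75-fold higher in resident macrophages, with a 95% interval from -1.39 to -0.22, an unadjusted p of 0.0130 and an adjusted p of 0.187, short of the threshold. Leaving out resident replicate 1 brought the log2 difference to -1.05 (edgeR's quasi-likelihood test, adjusted p = 0.0236). In that fit 580 of 11598 tested genes passed. Leaving out resident replicates 2 and 3 brought the log2 difference of Hspe1 to -0.11. These 2 values are the ends of its range over the alternatives tried.

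Hspd1, the chaperonin barrel encoded next to Hspe1, did not follow it. Hspd1 was read at 111, 123 and 115 CPM in recruited and 109, 103 and 112 CPM in resident libraries (log2 difference 0.11, adjusted p = 0.733). Per length, the ratio of Hspe1 to Hspd1 in FPKM was 1.53, 1.60 and 1.56 in recruited libraries and 1.78, 3.71 and 3.23 in resident ones. The ratio was thus close to level in 4 libraries and high in resident replicates 2 and 3. The first bases of the 2 genes overlap on opposite strands, and Hspe1 has processed pseudogenes in GENCODE, so part of its reads could be divided among copies in a way that is not known here.

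Hspe1 has short transcripts, the longest coding one being 774 bases, and short transcripts in general stood high in the same libraries. Among the 1126 tested genes with the shortest exonic length (143 to 1713 bases, the first of 10 groups by length), the median deviation from a gene's own mean was -0.12, -0.19 and -0.19 log2 CPM in recruited libraries and -0.05, 0.34 and 0.30 log2 CPM in resident ones. The median log2 difference of these genes was -0.37, and that of the group with the longest genes was 0.16. An offset for transcript length was made from these same libraries, as the median deviation of each length group in each library. With it the log2 difference of Hspe1 was -0.40 (edgeR's quasi-likelihood test, adjusted p = 0.382). The offset takes out the median difference of the shortest genes, Hspe1 among them, so a smaller difference followed from its making. That fit is thus no test of the part of transcript length in the Hspe1 level. Fibroblast markers summed to 18.3, 10.2 and 16.3 CPM in recruited and 26.6, 52.6 and 58.5 CPM in resident libraries, with Pdgfra at 0 in all 6, and 0 of the 7 tested markers passed. Dendritic cell markers summed to 234, 420.1 and 161 CPM in recruited and 233, 577 and 1006 CPM in resident libraries. The part of these markers in the Hspe1 level was not tested.

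**Figure D3:**
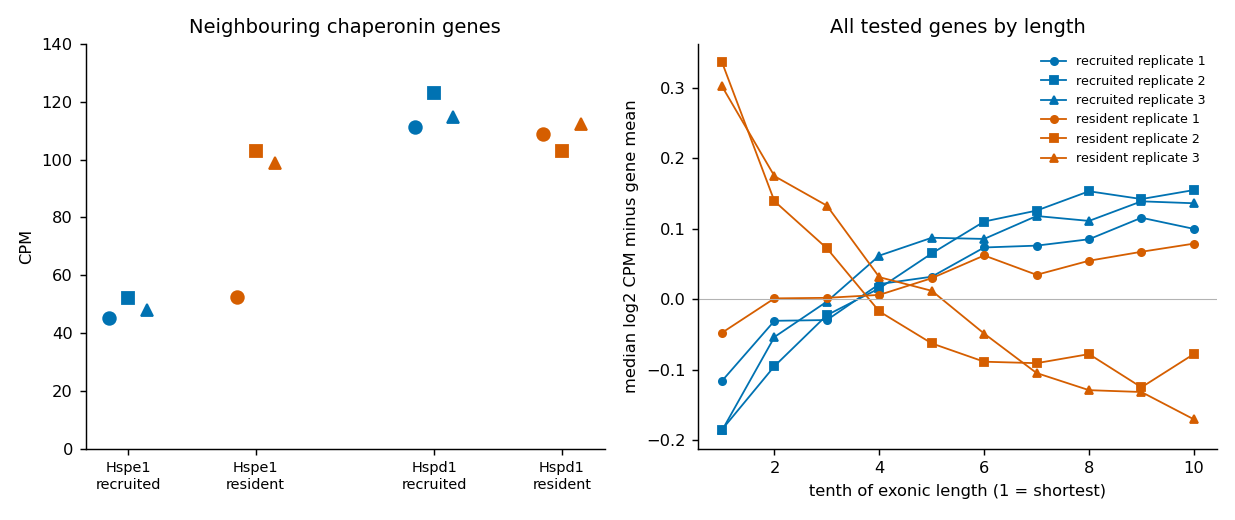
Left, Hspe1 and its neighbour Hspd1 in CPM (from 0) in recruited (blue) and resident (orange) libraries, 1 point per library; right, median deviation of log2 CPM from each gene's mean, in 10 groups of tested genes ordered by exonic length, 1 line per library. Resident replicates 2 and 3 hold the 2 highest Hspe1 values, 103 and 98.7 CPM, and are the 2 libraries in which the shortest genes stand above their mean, by 0.34 and 0.30.

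**Figure D4:**
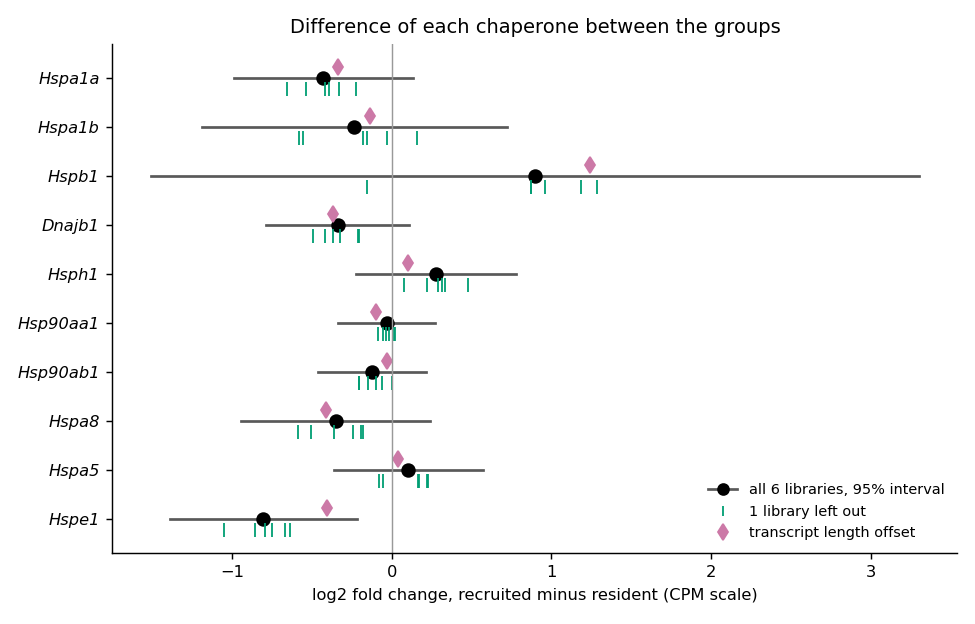
Log2 fold change of each chaperone, recruited minus resident (horizontal axis), from edgeR with its 95% interval; ticks below each point are fits with 1 library left out and diamonds are fits with an offset for transcript length. Hspe1 alone has an interval that stays below 0, from -1.39 to -0.22, and its diamond is at -0.40.

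Across libraries the chaperones varied in more than a single pattern. Resident replicate 3 held the highest CPM of the 6 libraries for 6 of the 10 genes, and recruited replicate 2 the lowest for 4 and resident replicate 2 the lowest for 3. The 10 genes together took 0.457, 0.397 and 0.553% of the counts in recruited libraries and 0.579, 0.376 and 0.579% in resident libraries. Replicate 2 was thus the lowest library of each group. Immediate-early genes, of which 22 of 23 were tested, summed to 12017, 8154 and 10861 CPM in recruited and 10719.8, 8723 and 11452 CPM in resident libraries, again with replicate 2 lowest in each group. The part of these genes in the chaperone levels was not tested. Of the 22, 10 differences were positive and 12 negative, 0 passed, and the median was -0.05. The 4 most abundant had log2 differences of 0.03 for Dusp1, a phosphatase of stress kinases, -0.03 for Fos and 0.12 for Junb, subunits of the factor AP-1, and -0.19 for Zfp36, which marks cytokine mRNAs for decay.

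The genes whose pattern over the 6 libraries came nearest to summed Hspa1a and Hspa1b were Btg2, Ier2, Otud1, Kmt5c and Phf11a. Likeness was measured as the root mean square difference of log2 CPM after centring each gene, over 7516 candidate genes with at least 10 CPM on average. It was 0.11 for Btg2, an antiproliferative gene, and 0.12 for Ier2, an immediate-early gene, both of which stand in the immediate-early list above. Btg2 was read at 497, 267 and 321 CPM in recruited and 434, 305 and 494 CPM in resident libraries, high and low where the Hsp70 pair was. Genes near to Hspa8 in pattern were the transcription factor Klf2 (0.11), also in that list, Dnaaf2, Prpsap1 and Msl2. Klf2 was read at 154, 109.6 and 170.5 CPM in recruited and 184, 133 and 215 CPM in resident libraries, with replicate 2 lowest in each group as for Hspa8. These are descriptions over 6 libraries that share their preparation and differ in depth, and with so many candidates some gene comes near to any pattern.

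**Figure D5:**
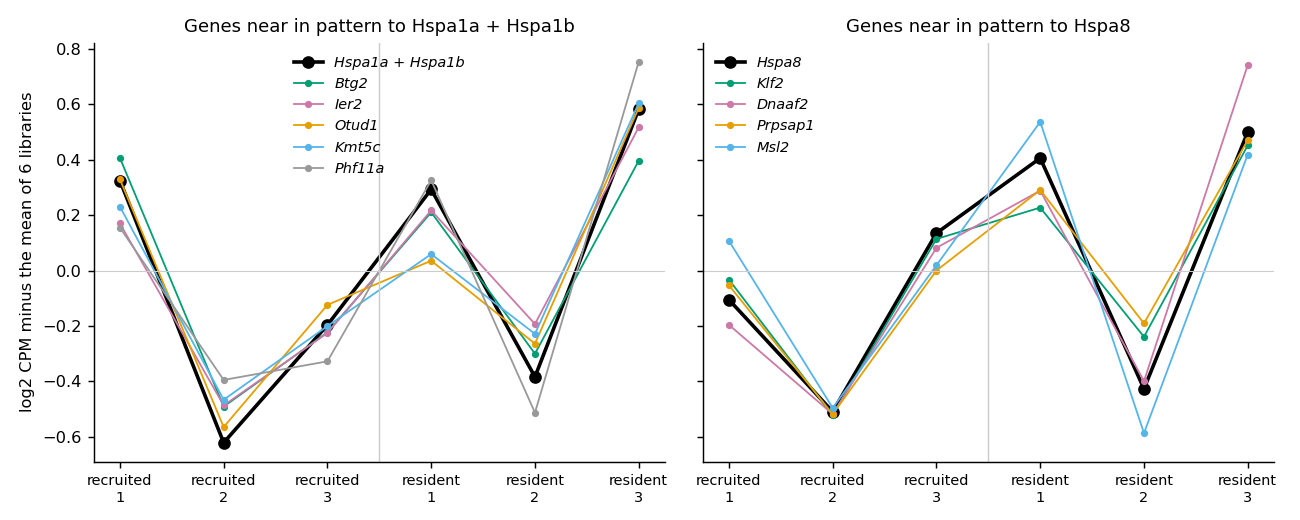
Log2 CPM of summed Hspa1a and Hspa1b (left, black) and of Hspa8 (right, black) with genes near to each in pattern (colours), each centred on its mean over the 6 libraries; the lines only join a gene's values and libraries have no order within a group. Recruited replicate 2 and resident replicate 2 are low for all genes shown, as in the Hsp70 pair at 61.5 and 72.6 CPM.

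Other chaperone genes were read from lists of the same pathways, and none of their genes passed the threshold of edgeR's quasi-likelihood test with all 6 libraries. Of 26 tested Hsf1 regulators and cochaperones of Hsp70 and Hsp90, 4 differences were positive and 22 negative, 0 passed, and the median was -0.22. An unadjusted p under 0.05 was reached by 4 of the 26, a share below the 16.8% of all tested genes. In 8 of the 26 the resident libraries all stood above the recruited ones, and in 1 the recruited libraries did, patterns that 12.6% and 12.2% of all tested genes had. The 3 most abundant in the list were Tsc22d3 (log2 difference -0.08), the exchange factor Bag1 (-0.30) and the Hsf1-binding protein Hsbp1 (-0.37, adjusted p = 0.251). Tsc22d3 encodes the glucocorticoid-induced protein GILZ and is not a cochaperone, though the list counts it. Chosen after their values were seen, Hsf1 itself was read at 42.8, 44.3 and 43.2 CPM in recruited and 57.8, 47.6 and 46.4 CPM in resident libraries, and the Hsp90 immunophilin Fkbp4 at 68.7, 55.9 and 44.3 CPM in recruited and 81.9, 90.6 and 91.1 CPM in resident libraries (log2 difference -0.64, adjusted p = 0.163). The gene with the opposite pattern was Bag3, a cochaperone of selective autophagy, at 59.2, 74.4 and 58.2 CPM in recruited and 56.6, 40.8 and 57.3 CPM in resident libraries, likewise named after its values were seen. Negative differences numbered 21 of the 26 without resident replicates 2 and 3, and 19 with the offset for transcript length; which genes these were was not compared.

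The cytosolic chaperonin folds actin and tubulin. Of 15 tested genes of the cytosolic chaperonin, prefoldin and Hspd1, 3 differences were positive and 12 negative, with 0 past the threshold and a median of -0.20. Without resident replicate 2, 12 were negative and the median was -0.30. Without resident replicate 3, 10 were negative and the median was -0.07, and without both libraries 7 were negative and the median was 0.05. With the offset for transcript length 12 were negative and the median was -0.17. The most abundant were the chaperonin subunits Cct8 (log2 difference -0.03), Cct5 (-0.29) and Cct7 (-0.11). Of 24 tested J-domain genes 11 differences were positive and 13 negative, 0 passed, and the median was -0.03. Among them Dnaja1 of the cytosol, Dnajb11 of the endoplasmic reticulum and Dnajc8 had log2 differences of -0.04, -0.03 and -0.31. Of 20 further Hsp70, Hsp110, Hsp90 and small heat-shock genes 14 were tested, with 7 positive and 7 negative and 0 past the threshold. Hsp90b1, the Hsp90 of the endoplasmic reticulum, and Hspa4, an Hsp110 protein, had log2 differences of 0.05 and 0.26.

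Of 26 tested genes of the endoplasmic reticulum and the unfolded protein response, 13 differences were positive and 13 negative, 0 passed, and the median was 0.00. The disulfide isomerase P4hb was read at 1016 to 1173 CPM in recruited and 828 to 920 CPM in resident libraries, without overlap (log2 difference 0.33, adjusted p = 0.231), and Pdia3 had a log2 difference of -0.10. Of 13 tested mitochondrial chaperones and proteases 9 differences were positive and 4 negative, 0 passed, and the median was 0.11. Hspa9 (mortalin), the Hsp70 that pulls proteins into the mitochondrion, was read at 187, 248 and 227 CPM in recruited and 153, 166 and 140.1 CPM in resident libraries. Recruited libraries all lay above resident ones, the opposite of Hspe1, and the log2 difference of 0.53 ± 0.15 (SE) did not pass (adjusted p = 0.157). DESeq2 passed 5.66% of all genes with an adjusted p there. Of the genes in these lists it passed Hspa9, the protease subunit Afg3l2 of the mitochondrial list and the immediate-early gene Fosb, and no other. Without resident replicate 1, 580 of 11598 tested genes passed in edgeR's quasi-likelihood test. Among them were Dnajc15 and Dnajc19 of the J-domain list and Sel1l and Edem1 of the endoplasmic reticulum list. Of the genes named as passing, all but Hspa9 are named after their values were seen. Its exchange factor Grpel1 had a log2 difference of -0.12.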

How the data were processed

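Per the labels' protocols, the SMART-Seq v4 kit gave the cDNA and Nextera XT the libraries, and paired-end reads of 75 bases came from 2 runs. The run of each library is not given, so run and group cannot be told apart. The authors deposited expected counts per gene, not normalized, and FPKM values, scaled to transcript length and library size, were deposited by the authors in a second table. Per the submitters' processing notes the tools included STAR 2.5.3a, RSEM 1.2.28, DESeq2 and edgeR on mm10; RSEM divides reads that fit several genes. Of 24848 rows, 26 with dates as symbols (0.121 to 0.138% of counts) were left out. Expected counts, assumed to be plain counts in the plan, were rounded and tested with edgeR 4.0.16 (R 4.3.3; TMM, filterByExpr, robust quasi-likelihood, group as the only term, Benjamini-Hochberg adjustment over 11354 genes, threshold 0.05). The standard error is the log2 difference over the square root of F. Log2 CPM used a prior count of 2. The 3 libraries per group are separate pools of mice. The procedure was also run on simulated data with an equal spread in both groups, unlike these libraries. That run does not show how well differences of the size seen here are found. Exonic lengths and gene overlaps come from the GENCODE annotation of GRCm38 (24296 symbols matched), promoters from RefSeq. Alternatives were DESeq2 1.42.0, its size factors, limma 3.58.1 on log2 FPKM with 1 or 0.1 added, no filter, a replicate block, the summed Hsp70 pair and leaving out each library; a transcript length offset and leaving out resident replicates 2 and 3 were chosen after seeing the data. Members and lists were chosen with earlier results of these data known. Named beside the members were the 3 most abundant genes of each chaperone list, the 4 most abundant immediate-early genes, the 2 most abundant of each marker list and the 5 genes nearest in pattern, of which 1 is not reported here. No molecular identifiers were used, so floors cover counting error only.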

Additional observations from a re-analysis of the deposited data

How the results depend on the processing

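Of 148 log2 differences of the chaperones recomputed under 15 alternatives, 138 kept their direction, 10 turned and 1 passed the threshold, that of Hspe1 without resident replicate 1. The number of chaperones past the threshold was 0 in all other fits, and 0 to 1 over fits that leave out a library. Of all tested genes 36 passed, against 58 with no filter, 697 with DESeq2, 72 with limma on log2(FPKM + 1), 56 on log2(FPKM + 0.1), 11 without resident replicates 2 and 3, and 0 to 580 over fits that leave out a library; the cause was not tested. It was 580 without resident replicate 1, and 0, 1, 3, 5 and 13 without recruited replicate 2, recruited replicate 1, resident replicate 2, resident replicate 3 and recruited replicate 3. Leaving out a library moved the log2 difference of Hspa5 between -0.0764 and 0.22, of Hsp90aa1 between -0.0833 and 0.0185, of Hsp90ab1 between -0.21 and 0.0001, of Hspa1b between -0.58 and 0.16, of Hspb1 between -0.16 and 1.29, of Hsph1 between 0.08 (without resident replicate 2) and 0.48 (without resident replicate 3), of Hspa8 between -0.59 (without resident replicate 2) and -0.18 (without resident replicate 3), of Hspa1a between -0.65 (without recruited replicate 1) and -0.23 (without recruited replicate 2) and of Dnajb1 between -0.49 (without recruited replicate 3) and -0.20 (without recruited replicate 2), and the difference of the Hsp70 log2 ratio between -0.21 and 0.16. Hspa8 also stood at -0.19 without recruited replicate 2, and Dnajb1 at -0.21 without resident replicate 3. Signs turned without recruited replicate 3 for Hspa5, Hsp90aa1 and Hspb1, without resident replicate 2 for Hspa5, and without resident replicate 3 for Hspa1b, Hsp90aa1 and Hsp90ab1. Without resident replicates 2 and 3 the difference was -0.10 for Hspa5, 0.089 for Hsp90aa1 and 0.0697 for Hsp90ab1, a lone resident library being assumed to vary like the recruited ones. Libraries of the same number deviated together only weakly (r 0.02, 0.06 and 0.05), and the numbers were not taken as pairs. Such a correlation over all tested genes cannot show whether same-numbered libraries came from the same mice. With a replicate block 28 genes and 0 chaperones passed. The SE of Hspa8 was 0.15 with the block and 0.26 without it. With the block the SE also fell for Hspa1a, Hspa1b, Hspa5, Dnajb1 and Hspe1. It rose for Hsp90aa1, Hsp90ab1, Hspb1 and Hsph1. Recruited libraries had a biological coefficient of variation of 0.286 and resident ones 0.605, which the shared spread does not model.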
